A study of Mus musculus with 11 samples.

Results

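Interferon-induced genes are the genes that cells switch on when interferon binds its receptors. A list of 37 such genes was followed in mouse liver. Every probe set (the group of oligonucleotides that reads one transcript) whose platform annotation gave one of these symbols was taken as a member. Of the 37 genes, 33 had a probe set carrying that 1 symbol, with 42 probe sets in all among 22690 on the array. Of these, 29 were bright enough to be tested among 7924 genes. Ifit2, Mx1, Mx2 and Oasl2 were too dim. Ifi44, Xaf1 and Ly6e had no probe set of 1 symbol and were not analysed here. Isg15, the ubiquitin-like protein joined to other proteins after interferon treatment, was read only by a probe set shared with Gm9706, so no value is given for it.

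The livers were those of 11 male mice, 1 array each, on a background the series calls mixed. The DH group was 4 Akt1 double transgenic mice fed the high-fat diet, whose labels record muscle hypertrophy. The CH group was 4 wild-type mice fed the same high-fat diet, and the CN group was 3 wild-type mice fed the control diet, also called normal, and neither had muscle hypertrophy. All 3 groups, wild type included, received doxycycline for 3 weeks, and the labels give no age and do not name the promoter that drives the transgene. The series asked how diet and Akt1-driven muscle growth affect the liver. DH against CH differs in genotype, CH against CN in diet, and DH against CN in both at once. No transgenic mice on the control diet were analysed here.

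Type I interferons signal through the receptor chains Ifnar1 and Ifnar2 and the kinases Jak1 and Tyk2 to a complex that holds Stat2 and Irf9 and binds the interferon-stimulated response element (ISRE). Interferon-gamma signals through its own receptor, and its early targets carry the gamma-activated site (GAS). Antiviral effectors are mainly known as type I targets. The interferon-gamma GTPases, which attack the vacuoles of intracellular parasites, and the immunoproteasome subunits, which replace the standard catalytic subunits and change the peptides offered on class I molecules, respond strongly to interferon-gamma. Many genes respond to both. In liver, hepatocytes and the resident macrophages, called Kupffer cells, carry out these responses.

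The promoters of 31 of the 37 genes were found in the RefSeq promoter table for build GRCm38.p6, as windows of 300 bases from 250 before to 50 after each annotated start. The ISRE core was searched as GAAA, any 2 bases and GAAA again, and the GAS core as TTCNNNGAA, both on either strand. Both motifs may overlap each other and themselves. The windows below were chosen to show the forms the motifs take among the members, and Psmb9 as the member that passed the test. Capitals mark the motif matches, and each line runs 5′ to 3′ on the gene's strand. Ifit1 lies at chr19:34640639-34640938 on the plus strand and Oas1a at chr5:120907476-120907775 on the minus strand. Igtp lies at chr11:58199306-58199605 and Irgm2 at chr11:58214727-58215026, both on the plus strand, and Psmb9 at chr17:34187281-34187580 on the minus strand.
Ifit1: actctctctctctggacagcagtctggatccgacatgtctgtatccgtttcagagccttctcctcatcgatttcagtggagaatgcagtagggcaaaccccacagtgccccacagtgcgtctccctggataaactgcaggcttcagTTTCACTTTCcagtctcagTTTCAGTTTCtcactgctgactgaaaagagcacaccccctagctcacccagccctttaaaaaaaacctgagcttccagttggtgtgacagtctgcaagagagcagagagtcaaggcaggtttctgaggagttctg
Oas1a: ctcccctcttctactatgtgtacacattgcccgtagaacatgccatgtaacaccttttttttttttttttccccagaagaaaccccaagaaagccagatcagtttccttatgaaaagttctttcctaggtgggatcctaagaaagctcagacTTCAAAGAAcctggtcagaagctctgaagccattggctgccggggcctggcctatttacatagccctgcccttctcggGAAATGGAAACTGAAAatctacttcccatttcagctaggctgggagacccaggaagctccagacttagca
Igtp: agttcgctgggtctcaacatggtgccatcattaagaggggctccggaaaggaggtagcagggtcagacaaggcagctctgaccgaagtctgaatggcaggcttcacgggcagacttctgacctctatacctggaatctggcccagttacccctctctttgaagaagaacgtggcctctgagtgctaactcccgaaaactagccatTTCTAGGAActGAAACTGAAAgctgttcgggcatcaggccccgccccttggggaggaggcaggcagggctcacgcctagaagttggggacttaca
Irgm2: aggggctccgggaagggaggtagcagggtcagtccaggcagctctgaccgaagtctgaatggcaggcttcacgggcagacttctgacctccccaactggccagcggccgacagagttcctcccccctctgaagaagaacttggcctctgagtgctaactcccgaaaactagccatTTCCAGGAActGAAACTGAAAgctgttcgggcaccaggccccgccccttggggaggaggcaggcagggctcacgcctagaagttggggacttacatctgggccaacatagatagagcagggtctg
Psmb9: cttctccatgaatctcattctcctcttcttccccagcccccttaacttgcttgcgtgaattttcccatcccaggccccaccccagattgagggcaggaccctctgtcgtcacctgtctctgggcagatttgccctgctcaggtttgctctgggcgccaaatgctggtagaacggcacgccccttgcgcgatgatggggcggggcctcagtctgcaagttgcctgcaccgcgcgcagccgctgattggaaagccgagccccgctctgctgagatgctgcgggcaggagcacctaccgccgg

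The ISRE core occurred in 15 of the 31 genes (48.4%), against 3.99% of all 27025 genes with such a window. The GAS core occurred in 10 of 31 (32.3%), against 9.55% of all genes. By class, the ISRE core was found in 8 of 16 antiviral effectors, 1 of 4 transcription factors, 5 of 5 GTPases with a window, 0 of 3 immunoproteasome genes and 1 of 2 chemokines. In Ifit1 the 2 matches began 104 and 85 bases before the start. In Oas1a they overlapped and began 20 and 14 bases before the start. The windows of Igtp and Irgm2, 2 GTPase genes of chromosome 11, each held an ISRE core just downstream of a GAS core, and their longest shared unbroken run, 61 bases, lay downstream of both. The Psmb9 window held neither set of letters. It overlapped by 275 bases with the window of the neighbouring transporter gene Tap1, which is read from the opposite strand. A match describes letters in a window and is no evidence of binding, and the lack of one says nothing about any factor.

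The values are MAS5 signals, a linear intensity made and scaled per array by the authors. The trimmed mean signal was 500.251 to 500.285 on every array, the median signal 97.2 to 118, and the Spearman correlation between arrays 0.935 to 0.956. The 8 hepatocyte markers with a probe set were all tested, with summed signals of 164761 to 221909 in DH, 160677 to 179562 in CH and 141942 to 171633 in CN, so hepatocyte genes were bright on every array. None of the T and natural killer cell markers (12 with a probe set), B cell markers (5) or neutrophil markers (8) was bright enough to be tested, and none was listed at 0. The summed signal of the T and natural killer cell markers was 370.8 to 470.3 in DH, above 197.0 to 329.5 in CH and 203.5 to 300.4 in CN. The sums of the B cell and of the neutrophil markers overlapped between the groups. Arrays DH 3 and DH 4 had the brightest single probe sets, at 42426 and 43273 against at most 35450 on the other arrays. A difference below is a log2 difference with limma's standard error (SE), and a gene is called where limma's Benjamini-Hochberg adjusted p over all 7924 genes is under 0.05. The 3 comparisons share arrays and are not independent of each other.

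**Figure D1:**
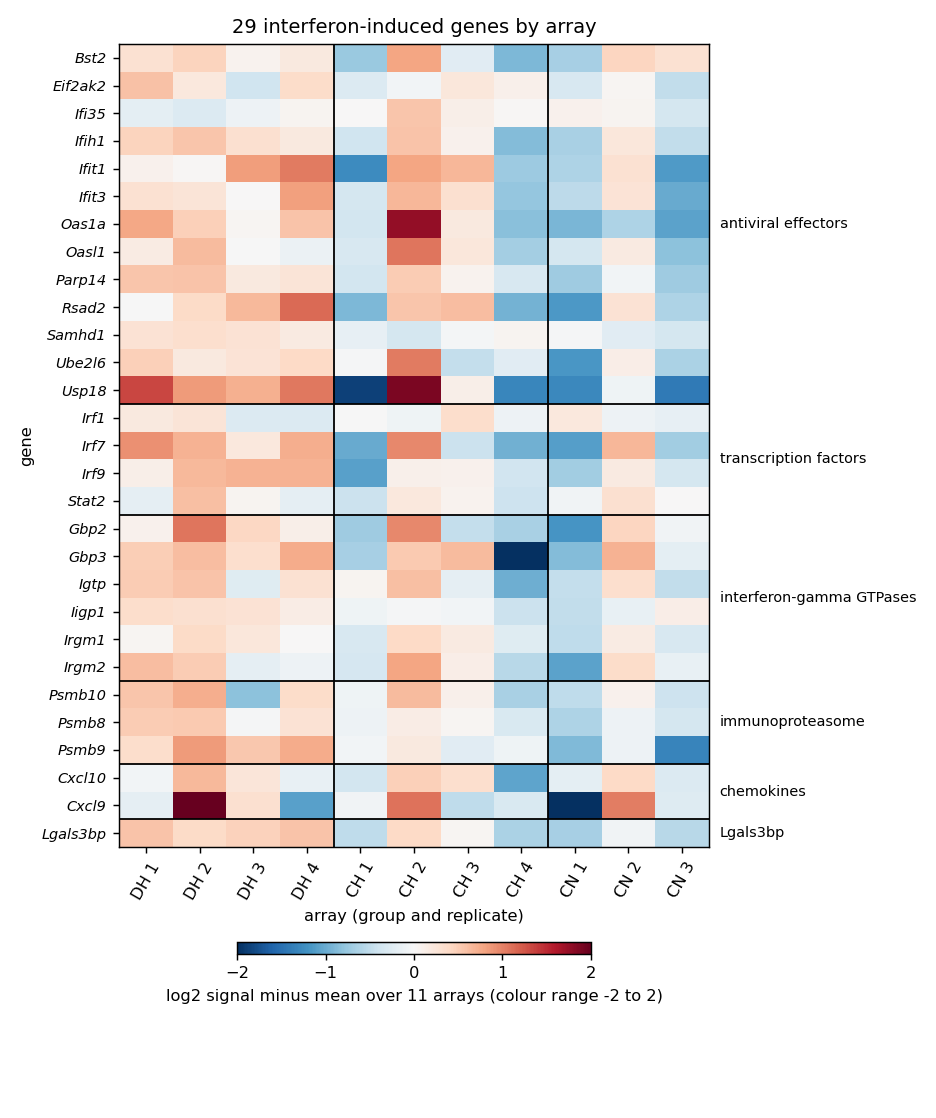
Each row is 1 of the 29 tested interferon-induced genes, ordered by class, and each column is 1 array, with DH, CH and CN from left to right. Colour gives the log2 signal minus the gene's mean over 11 arrays, on a scale that ends at -2 and 2. The median member lies above its mean on every DH array, while within CH and CN array 2 stands above the others.

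In the livers of transgenic mice, 27 of 29 interferon-induced genes had a higher mean log2 signal than in wild-type mice on the same diet, where 50.2% of all genes did, although no single one passed the test. Against the control diet, 26 of 29 were higher in transgenic mice, where 50.6% of all genes were, and 1, Psmb9, passed. The diet alone gave 24 of 29 higher in CH than in CN, where 51.1% of all genes were, with none passing. All 4 DH arrays lay above the overall mean of the typical member, while CH and CN each held arrays above and below it.

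Across the 29 members, the median log2 deviation from the mean over all arrays was 0.35, 0.52, 0.22 and 0.28 in DH 1 to DH 4. It was -0.35, 0.56, 0.09 and -0.64 in CH 1 to CH 4, and -0.65, 0.17 and -0.41 in CN 1 to CN 3. Array CH 2 thus reached the level of the DH arrays, CN 2 came close to it, and CH 1, CH 4, CN 1 and CN 3 were low. CH 2 was the highest CH array for 24 of 29 members (82.8%), against 31.6% of all genes tested. CN 2 was the highest CN array for 25 of 29 (86.2%), against 28.8% of all genes. DH 2 was the highest DH array for 15 of 29 (51.7%), against 29.2% of all genes. Since members rise and fall together between arrays, their counts are not 29 separate pieces of evidence.

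Among antiviral effectors, GTPases and immunoproteasome genes, the median spread differed more by class within CH and CN than within DH. The ratio of the highest to the lowest array had a median over members of 1.55 in DH, 2.69 in CH and 1.84 in CN, against 1.43, 1.38 and 1.32 over all genes. Antiviral effectors had a median ratio of 1.55 in DH, 2.87 in CH and 1.99 in CN. For the GTPases it was 1.54 in DH, 2.76 in CH and 2.24 in CN. The 3 immunoproteasome genes had 1.45 in DH, 1.38 in CH and 1.52 in CN. The ratio in CH was 2.42 for Psmb10, 1.38 for Psmb8 and 1.34 for Psmb9. The difference between the classes was not tested.

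**Figure D2:**
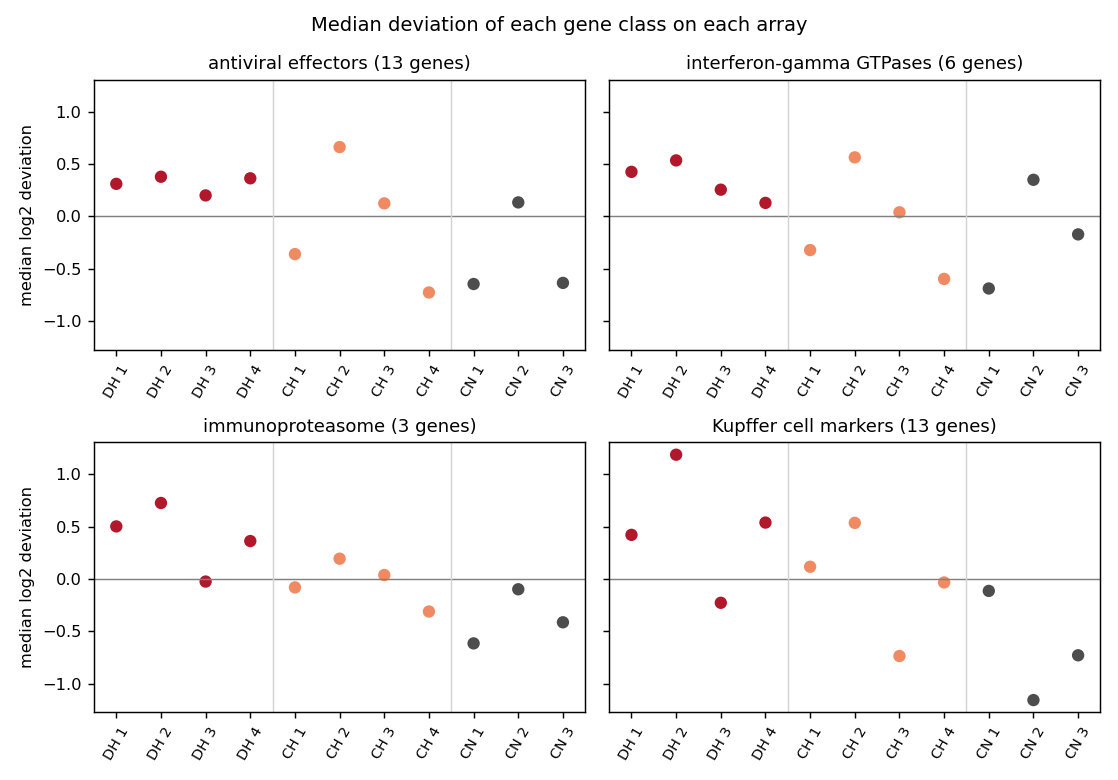
Each point is the median log2 deviation of a class from its mean over all 11 arrays, for the 13 antiviral effectors, 6 GTPases, 3 immunoproteasome genes and 13 Kupffer cell markers tested, with DH, CH and CN arrays from left to right. CH 2 is high in every class shown, whereas CN 2 is the lowest of all arrays for the Kupffer cell markers (-1.16) and above the other CN arrays for the interferon-induced classes.

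Among the immunoproteasome genes, Psmb9 was higher in transgenic mice than in mice on the control diet, Psmb8 showed a smaller difference that did not pass, and Psmb10 varied most within the high-fat groups. Psmb9 encodes the catalytic subunit that takes the place of Psmb6. Its signal was 635.9, 894.2, 720.3 and 833.2 in DH, 481.0, 569.1, 425.4 and 467.1 in CH, and 270.4, 461.7 and 198.7 in CN. Every DH array lay above every CH and every CN array, while CN 2 overlapped the CH range. Against the control diet Psmb9 rose 2.62-fold in DH, a log2 difference of 1.39 ± 0.24 (SE; n = 4 and 3; limma adjusted p = 0.0157). The difference was 0.66 ± 0.22 for DH against CH (adjusted p = 0.215) and 0.73 ± 0.24 for CH against CN (adjusted p = 0.622), neither called. Of all 7924 genes, 165 (2.08%) were called for DH against CN, 111 of them (1.4%) higher. Psmb9 kept its call in 19 of 22 alternative settings and lost it without CN 1 (adjusted p = 0.0535), without DH 4 (0.0530) and without DH 3 and DH 4 together (0.108), at 1.34, 1.35 and 1.37.

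Psmb8, the subunit that replaces Psmb5, had signals of 1109.3, 1119.1, 769.7 and 952.6 in DH, 730.4, 871.5, 803.7 and 631.2 in CH, and 511.0, 731.4 and 615.1 in CN. All DH arrays were above all CN arrays, but DH 3 lay within the CH range. Its log2 difference was 0.67 ± 0.17 for DH against CN (adjusted p = 0.0636) and 0.37 ± 0.16 for DH against CH (adjusted p = 0.317), neither called. Without DH 3 the first was 0.79 and passed (adjusted p = 0.0413). Psmb10, the subunit that replaces Psmb7, had 1418.2, 1605.5, 552.0 and 1247.6 in DH, 917.7, 1505.3, 1037.2 and 622.1 in CH, and 679.7, 1034.0 and 728.2 in CN. DH 3 was the lowest of all arrays for this gene and the 3 groups overlapped, with 0.48 ± 0.36 for DH against CN (adjusted p = 0.507).

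The standard subunits that these 3 replace did not share the pattern. Psmb5, Psmb6 and Psmb7 had log2 differences between -0.08 and 0.06 in the 3 comparisons, and none was called. Psmb7, for example, had 6827 ± 426 in DH, 7219 ± 331 in CH and 6937 ± 243 in CN (SD, n = 4, 4 and 3). Psmb9, Tap1, Psmb8 and Tap2 are consecutive coding genes on mouse chromosome 17. Tap1, a chain of the transporter that carries peptides to class I molecules, had 168.0, 274.5, 226.4 and 238.1 in DH, 113.2, 146.5, 160.3 and 130.8 in CH, and 116.8, 113.4 and 81.3 in CN. Every DH array was above every array of the other groups. Tap1 rose by 1.12 ± 0.21 in DH against CN (adjusted p = 0.0222) and stood at 0.71 ± 0.20 for DH against CH (adjusted p = 0.142).

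**Figure D3:**
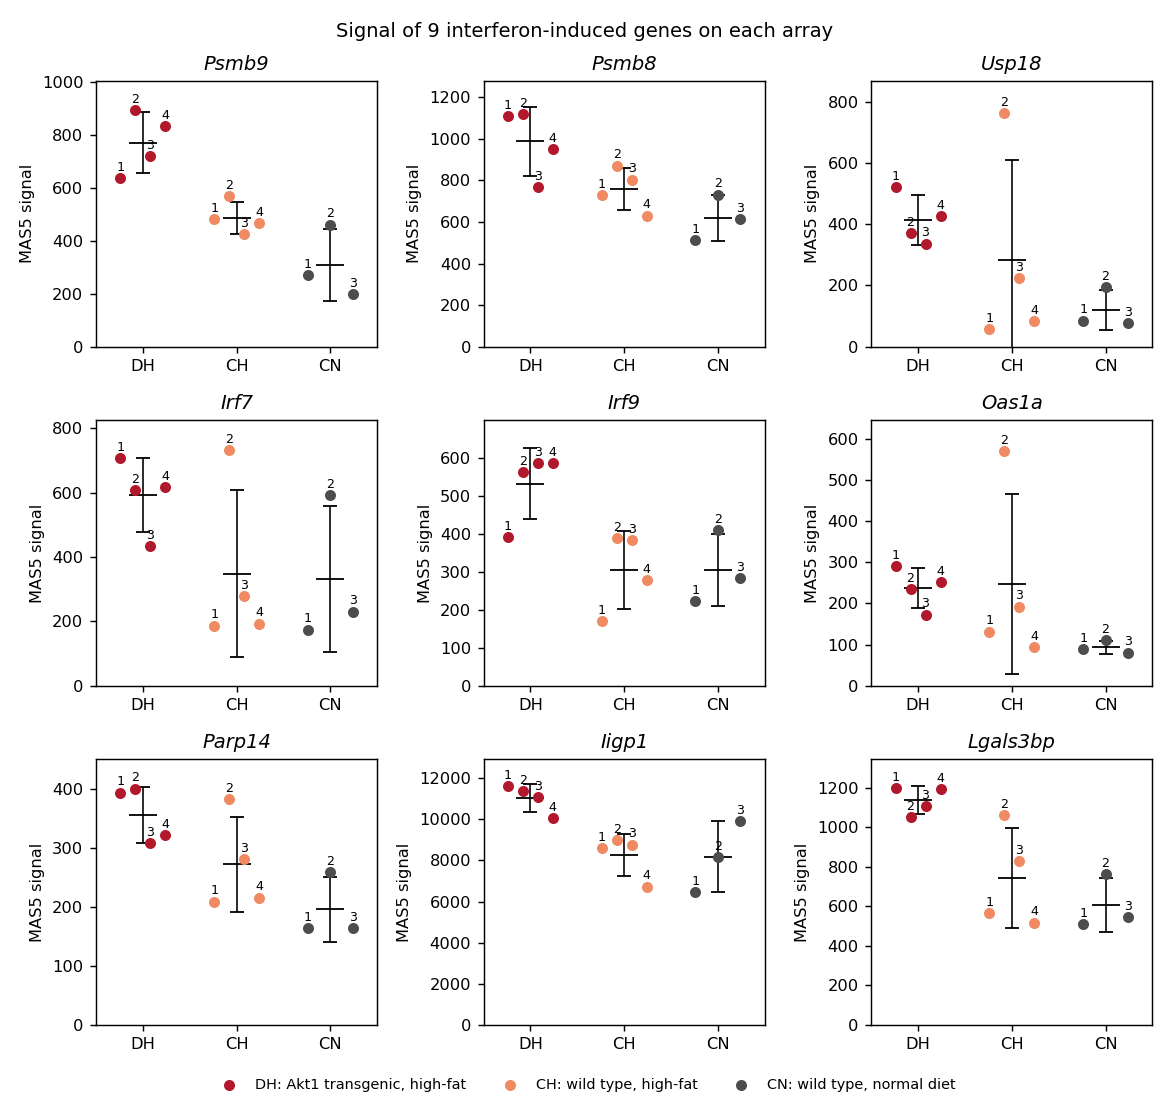
MAS5 signal (linear) per array for 9 members, with DH, CH and CN from left to right in each panel, points numbered by array, and bars for the mean ± SD (n = 4, 4 and 3). The lower bar of Usp18 in CH ends at the axis. Psmb9 in DH lies wholly above CH and CN, and CH 2 lies far above the other CH arrays for Usp18, Irf7 and Oas1a.

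Of the 13 antiviral effectors tested, 12 had a higher mean log2 signal in DH than in CH, where 50.2% of all genes did. Against CN, 12 were higher in DH, where 50.6% of all genes were. None was called in either comparison, where only 0.227% and 1.4% of all genes were called higher. Usp18, the protease that removes Isg15 from proteins and restrains type I receptor signalling, had signals of 521.7, 371.8, 336.7 and 427.1 in DH. It had 56.3, 763.6, 224.7 and 83.6 in CH, and 84.8, 193.8 and 77.4 in CN. All DH arrays exceeded all CN arrays, whereas CH spanned from the lowest to the highest value of all 11 arrays. The fitted log2 difference was 1.92 ± 0.70 for DH against CN (adjusted p = 0.175), the largest of the 29 members, and 1.28 ± 0.64 for DH against CH (adjusted p = 0.411).

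Oas1a, which makes the 2′-5′ oligoadenylates that activate RNase L, had 289.9, 235.6, 172.5 and 251.7 in DH, 131.4, 570.4, 192.4 and 94.2 in CH, and 89.3, 109.8 and 80.1 in CN. CH 2 was again above every other array, and the DH arrays again lay above all CN arrays. On the log2 scale the difference was 1.34 ± 0.47 for DH against CN (adjusted p = 0.162) and 1.06 ± 0.47 for CH against CN (adjusted p = 0.692). Parp14, an ADP-ribosyltransferase, had 394.0, 400.6, 308.8 and 321.1 in DH, 209.0, 382.5, 281.1 and 215.9 in CH, and 164.5, 259.1 and 163.8 in CN. DH and CN did not overlap, and CH 2 reached into the DH range. The log2 difference was 0.89 ± 0.23 for DH against CN (adjusted p = 0.0739).

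Samhd1, which hydrolyses the nucleotides that viral reverse transcription needs, differed in form from the others. Its signal was 273.5, 284.5, 275.0 and 255.7 in DH, 199.8, 176.3, 218.7 and 233.6 in CH, and 221.6, 193.2 and 176.4 in CN. The DH arrays lay above both wild-type groups, and CH 2 was the lowest CH array rather than the highest. Its log2 difference was 0.40 ± 0.13 for DH against CH (adjusted p = 0.210) and 0.47 ± 0.14 for DH against CN (adjusted p = 0.110). The other 3 probe sets of Samhd1 ran as low as 2.4 and had no such pattern.

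The other 9 antiviral effectors, like Usp18, Oas1a and Parp14, overlapped between DH and CH on the brightest probe set of each gene. Ube2l6, the enzyme that conjugates Isg15, had 388.0 to 474.0 in DH (median 430), 243.4 to 698.7 in CH (median 313) and 151.2 to 372.3 in CN (median 218), with DH wholly above CN and a log2 difference of 0.89 ± 0.34 (adjusted p = 0.196). Rsad2, or viperin, had 244.9 to 537.1 in DH, 127.3 to 377.0 in CH and 110.7 to 299.7 in CN. Ifih1, the RNA sensor MDA5, had 729.7 to 933.6 in DH, 351.2 to 947.4 in CH and 407.1 to 748.8 in CN. These 3 shared the order of group means DH, CH, CN.

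The same order held for Ifit1 and Ifit3, which bind foreign RNA. Ifit1 had 154.5 to 311.6 in DH, 63.9 to 263.1 in CH and 69.6 to 187.0 in CN, and Ifit3 had 253.5 to 446.0 in DH, 148.1 to 399.1 in CH and 125.0 to 305.3 in CN. Oasl1, a relative of the oligoadenylate synthetases, averaged 192 ± 47.0 in DH, 197 ± 111 in CH and 138 ± 47.3 in CN (SD, n = 4, 4 and 3), so DH and CH were alike in mean. Eif2ak2, the RNA-activated kinase PKR, averaged 122 ± 31.9 in DH, 104 ± 15.1 in CH and 87.5 ± 16.7 in CN. Its other, dimmer probe set had 84.8 to 115.2 in DH, above 59.3 to 79.9 in CH and 52.8 to 73.4 in CN. The log2 difference there was 0.57 ± 0.25 for DH against CH and 0.72 ± 0.27 for DH against CN, neither called. Bst2, or tetherin, which holds budding virions at the cell surface, had 1124.7 to 1465.9 in DH, 578.6 to 1862.5 in CH and 682.8 to 1444.2 in CN. Ifi35 was the single antiviral gene with a lower mean log2 signal in DH than in CH, at 386 ± 38.3 in DH, 484 ± 93.1 in CH and 406 ± 66.4 in CN, and a log2 difference of -0.31 ± 0.15 for DH against CH (adjusted p = 0.396).

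The 4 dim antiviral genes ranged from 4.7 to 170.7 in signal over all arrays and were not tested. Mx1 and Mx2 are dynamin-like GTPases against influenza and other viruses. Mx2 had 22.9, 25.5, 170.7 and 33.9 in DH, 10.0, 81.3, 55.7 and 51.7 in CH, and 11.9, 10.5 and 8.3 in CN, so DH 3 was far above the rest. Mx1 lay between 4.7 and 64.7 in DH, 15.6 and 38.0 in CH and 5.1 and 33.8 in CN. Ifit2 had its highest value in each group on array 2, at 130.2 in DH, 92.7 in CH and 58.5 in CN. Oasl2 did so in CH and CN, at 105.3 and 70.7, and reached 104.7 in DH on array 4. Without detection calls, signals this low were not set against background.

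Among the transcription factors, Irf9 and Irf7 had higher means in the transgenic mice and Irf1 and Stat2 did not stand apart. Irf9, which gives the type I complex its DNA binding, had 391.9, 562.7, 584.6 and 584.6 in DH, 169.4, 388.1, 382.7 and 277.1 in CH, and 221.6, 408.5 and 282.8 in CN. All DH arrays were above all CH arrays, by a narrow margin between DH 1 and CH 2, and CN 2 overlapped DH 1. The fitted log2 difference was 0.86 ± 0.27 for DH against CH (adjusted p = 0.200) and -0.03 ± 0.29 for CH against CN (adjusted p = 0.986). Irf7, the factor that amplifies type I interferon production, had 707.4, 608.5, 432.8 and 617.8 in DH, 186.7, 731.8, 279.1 and 193.1 in CH, and 174.1, 591.8 and 230.2 in CN. Arrays CH 2 and CN 2 lay within or above the DH range and the other 5 wild-type arrays below it. The difference was 0.99 ± 0.44 for DH against CH (adjusted p = 0.350).

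Irf1, a factor that interferon-gamma induces, had 766.3, 803.2, 557.2 and 554.6 in DH, 666.9, 632.7, 855.5 and 626.8 in CH, and 776.1, 629.9 and 602.7 in CN. The groups overlapped fully, and CH 2 and CN 2 were not high for this gene. The difference was -0.06 ± 0.16 for DH against CH (adjusted p = 0.895) and 0.05 ± 0.17 for CH against CN (adjusted p = 0.964). Stat2 averaged 300 ± 84.4 in DH, 256 ± 58.8 in CH and 297 ± 44.1 in CN, and both of its log2 differences from CN were below 0, at -0.01 ± 0.23 for DH and -0.23 ± 0.23 for CH.

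All 6 interferon-gamma GTPases had higher mean log2 signals in DH than in CH and than in CN on the brightest probe set of each gene. Of all genes, 50.2% and 50.6% did. None of the 6 was called, where only 0.227% and 1.4% of all genes were called higher. Iigp1, or Irga6, which gathers on the vacuoles of parasites such as Toxoplasma, had 11612.4, 11357.8, 11067.8 and 10051.2 in DH. It had 8583.3, 8972.3, 8766.5 and 6721.9 in CH, and 6444.1, 8176.7 and 9928.6 in CN. The DH arrays stood above every wild-type array, and CN 3 rather than CN 2 was the highest CN array. The difference was 0.42 ± 0.13 for DH against CH (adjusted p = 0.201) and 0.45 ± 0.14 for DH against CN (adjusted p = 0.132). Its second probe set ran from 3545.5 to 5375.0 in DH, from 2731.1 to 4055.3 in CH and from 2886.3 to 4701.4 in CN, with overlap.

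Irgm1, a regulator of the other GTPases of its family, had 688.9, 872.8, 782.2 and 670.4 in DH, 537.7, 877.7, 760.3 and 563.9 in CH, and 470.4, 753.6 and 533.6 in CN. All groups overlapped, with array 2 the highest in each. The difference was 0.38 ± 0.20 for DH against CN (adjusted p = 0.336). Irgm2 had 525.9 to 920.6 in DH, 409.1 to 1028.8 in CH and 284.8 to 770.3 in CN, and Igtp, or Irgm3, had 1097.1 to 1925.4 in DH, 659.3 to 1978.5 in CH and 923.4 to 1639.7 in CN. For both, CH 2 exceeded every other array. Gbp2 and Gbp3 are guanylate-binding proteins that coat pathogen vacuoles. Gbp2 had 114.3 to 225.0 in DH, 65.4 to 210.2 in CH and 47.6 to 145.0 in CN. Its log2 difference was 0.64 for DH against CH and 0.05 for CH against CN. The second Gbp2 probe set had 56.8 to 207.2 in DH, 68.4 to 186.2 in CH and 49.2 to 75.2 in CN. There the differences were -0.01 for DH against CH and 0.71 for CH against CN. Gbp3 had 134.1 to 178.4 in DH, 21.5 to 165.3 in CH and 58.3 to 172.1 in CN. Its difference of 1.00 ± 0.56 for DH against CH (adjusted p = 0.457) was the widest of the class in the reported fit. The 21.5 was that of CH 4 alone, with 67.3 on the next lowest CH array. Over the alternative settings the difference ran from 0.38 to 1.36.

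The chemokines Cxcl9 and Cxcl10, which draw Cxcr3-bearing T cells, varied more between arrays than between groups. Cxcl9 had 200.1, 946.0, 285.0 and 107.1 in DH, 215.8, 482.3, 159.7 and 184.2 in CH, and 53.5, 461.6 and 190.9 in CN. Array 2 was the highest in each group by a wide margin. Cxcl10 had 75.1, 123.2, 92.7 and 71.0 in DH, 60.6, 109.2, 98.8 and 37.8 in CH, and 68.4, 103.6 and 64.7 in CN. Array 2 was again the highest in each group, and neither gene was called, with adjusted p from 0.661 to 0.964 over the 3 comparisons.

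Lgals3bp, a secreted glycoprotein that binds galectin-3, had 1197.5, 1049.9, 1106.5 and 1191.2 in DH, 565.7, 1059.9, 828.0 and 516.4 in CH, and 509.1, 761.4 and 544.6 in CN. The DH arrays had a ratio of highest to lowest of 1.14 and lay above all CN arrays, and CH 2 alone among the CH arrays reached them. On the log2 scale the difference was 0.93 ± 0.23 for DH against CN (adjusted p = 0.0596) and 0.67 ± 0.21 for DH against CH (adjusted p = 0.197).

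**Figure D4:**
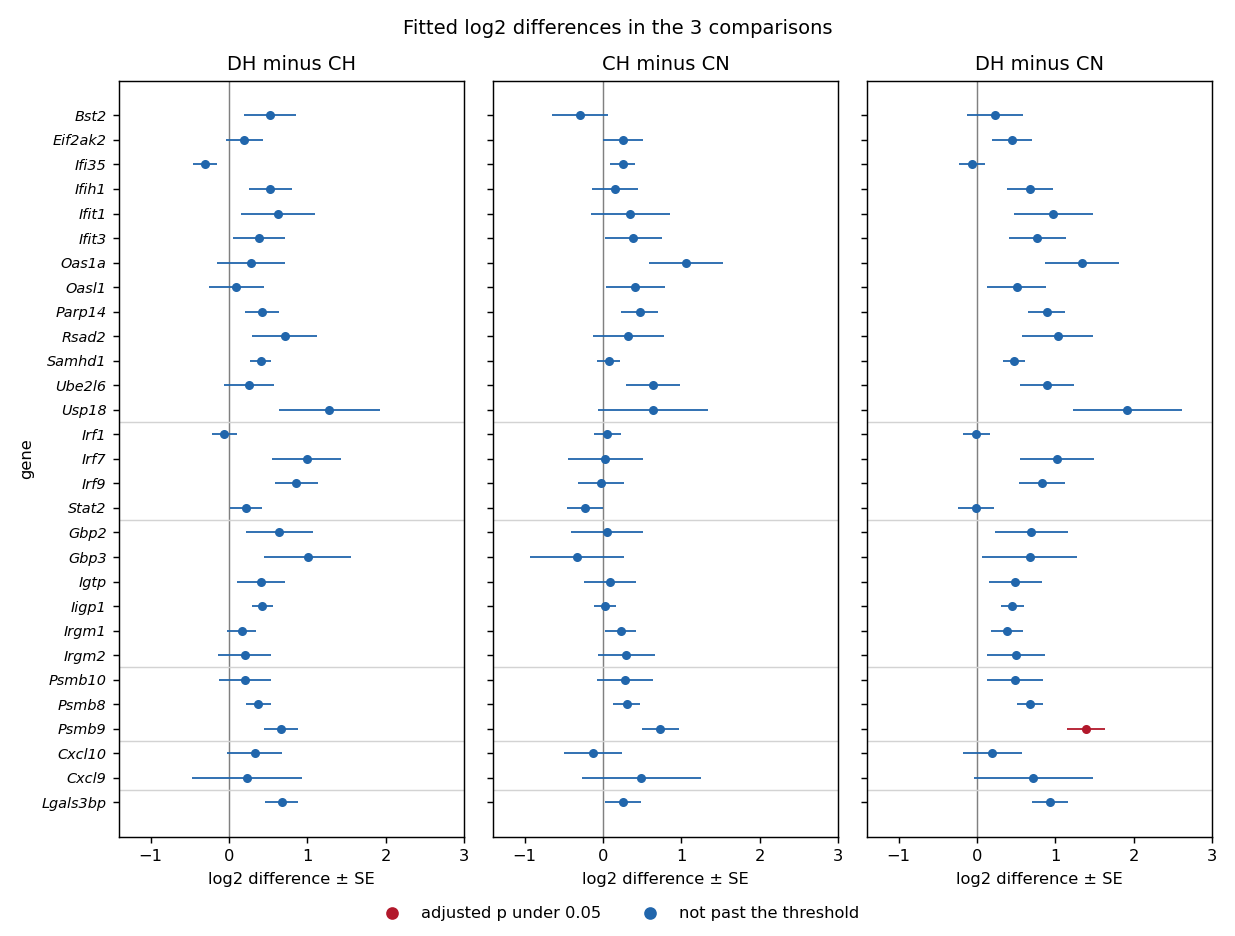
Log2 difference ± SE (limma, 11 arrays in 1 fit) of each of the 29 tested members for DH minus CH, CH minus CN and DH minus CN, with genes grouped by class. Red marks an adjusted p under 0.05, which Psmb9 alone reached, for DH minus CN.

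For genotype on the high-fat diet, the median log2 difference over the 29 members was 0.40, against 0.00 over all genes. None of the members was called by limma, where 29 of all genes (0.366%) were, 18 of them (0.227%) higher, and 7 members had an unadjusted p under 0.05 with a higher mean, where 6.95% of all genes did. For 4 members (13.8%), Psmb9, Samhd1, Irf9 and Iigp1, every DH array was above every CH array, as it was for 4.32% of all genes. The class medians were 0.40 for antiviral effectors, 0.54 for transcription factors, 0.41 for GTPases, 0.37 for the immunoproteasome and 0.28 for chemokines. The medians of the type I antiviral genes, the GTPases and the immunoproteasome genes were thus close to each other. Leaving out 1 array gave a median over members of 0.29 to 0.60. The highest, 0.60, came without CH 2, the highest CH array for most members, so leaving it out lowers the CH mean. In that fit 17 members had an unadjusted p under 0.05, as did 1202 of all genes in either direction, although no member was called. In the reported fit 551 of all genes had such a p with a higher mean and 534 with a lower one. Without array 2 of all groups, a setting chosen after the data were seen, the median was 0.55. There 15 members had such a p, as did 1111 of all genes in either direction.

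For diet in wild-type mice, the median over members was 0.25, against 0.01 over all genes. None of the members and none of the 7924 genes (0%) was called by limma, and 2 members, Psmb9 and Oas1a, had an unadjusted p under 0.05 with a higher mean, where 3.92% of all genes did. No member had every CH array above every CN array, where 4.58% of all genes did. The class medians were 0.35 for antiviral effectors, 0.00 for transcription factors, 0.07 for GTPases, 0.30 for the immunoproteasome and 0.18 for chemokines. The median over members depended on single arrays, at 0.07 without CH 2, 0.14 without CN 1, 0.15 without CN 3, 0.16 without CH 3, 0.38 without CH 4 and 0.43 without CN 2. The GTPase median turned to below 0 without CN 1 or CH 2, as low as -0.12.

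For transgenic mice on the high-fat diet against wild-type mice on the control diet, the median over members was 0.67, against 0.00 over all genes. Besides Psmb9, 11 members had an unadjusted p under 0.05 with a higher mean, making 12 of 29 (41.4%) where 9.96% of all genes did. For 9 members (31.0%) every DH array was above every CN array, as for 8.46% of all genes, namely Usp18, Oas1a, Parp14, Samhd1, Ube2l6, Iigp1, Psmb8, Psmb9 and Lgals3bp. The class medians were 0.77 for antiviral effectors, 0.41 for transcription factors, 0.49 for GTPases, 0.67 for the immunoproteasome and 0.46 for chemokines. The number called was 5 without CH 2 (Psmb9, Lgals3bp, Oas1a, Parp14 and Usp18), 2 without DH 3 (Psmb9 and Psmb8), and 0 without CN 1 or DH 4. Without CH 2 the differences themselves did not change. That array enters this comparison only through the estimate of the spread that all groups share.

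Kupffer cell and macrophage markers moved with part of this pattern. The summed signal of 14 such markers, 13 of them tested, was 6162 to 16747 in DH, 4947 to 12246 in CH and 3625 to 6740 in CN. DH 2 and CH 2, the arrays with the highest interferon-induced signals of their groups, also had the highest marker sums. CN 2 had the lowest marker sum of all arrays, 3625, although it had the highest interferon-induced signals of its group. The median difference over the 13 markers was 0.54 for DH against CH and 0.60 for CH against CN. None was called, where 0.227% and 0% of all genes were called higher. For DH against CN the median was 1.06, with 12 markers higher and 1 lower. There 2 were called, where 1.4% of all genes were called higher. These were Cd5l, a secreted scavenger receptor protein of macrophages, at 2.02 ± 0.46 (adjusted p = 0.0456) and the folate receptor Folr2 at 1.53 ± 0.34 (adjusted p = 0.0447). In that comparison 10 markers (76.9%) had limma's unadjusted p under 0.05 with a higher mean, where 9.96% of all genes did. For 6 markers (46.2%) every DH array was above every CN array, as for 8.46% of all genes. None of the 14 was listed at 0. In whole liver, a difference in the number of cells of a type and a difference in RNA per cell cannot be told apart, and the part of these cells in the results above was not tested. Among the other marker lists, all 8 liver endothelial cell markers had a higher mean log2 signal in DH than in CH (median 0.24), where 50.2% of all genes did. All 8 were lower in CH than in CN (median -0.26), where 51.1% of all genes were higher. Between DH and CN, 4 were higher and 4 lower (median 0.01), and none was called in any comparison. Ly6d, listed for plasmacytoid dendritic cells and made by other cells too, had 133.1 to 780.7 in DH, 46.2 to 102.0 in CH and 21.5 to 126.4 in CN. Tcf4, the other marker of that list tested, differed by 0.00 for DH against CH and 0.07 for DH against CN, against 2.16 and 2.30 for Ly6d, and neither gene was called.

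The rest of the interferon pathway was read through lists chosen for this purpose. Of 14 tested ligand, receptor and JAK-STAT genes, 2 rose in DH against CN, where 1.4% of all genes did, and none fell. Stat3, which the interleukin-6 family activates and interferons can also use, had 2852 ± 409 in DH, 1812 ± 308 in CH and 1405 ± 155 in CN (SD, n = 4, 4 and 3), with a difference of 1.02 ± 0.15 for DH against CN (adjusted p = 0.00928). Every DH array was above every CH array for Stat3, at 0.66 ± 0.14 (adjusted p = 0.0721). Socs3, a feedback inhibitor that Stat3 induces, had 828.3 to 1429.6 in DH, 102.3 to 538.0 in CH and 122.9 to 435.9 in CN, and rose by 2.40 ± 0.52 in DH against CN (adjusted p = 0.0413). The receptor chain Ifnar2 stood at 0.41 ± 0.09 for DH against CH (adjusted p = 0.0768). The other chain, Ifnar1, stood at -0.06 ± 0.15 (adjusted p = 0.900) and the type I interferon gene Ifna2 at 0.05 ± 0.21 (adjusted p = 0.941) in that comparison. In CH against CN the genes of smallest p were Stat3 at 0.36 and the phosphatase Ptpn11 at -0.22, and neither was called. The interferon-gamma gene Ifng was too dim to be tested, at 1.2 to 10.7 in DH, 2.5 to 24.7 in CH and 3.8 to 25.6 in CN.

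Of 12 tested sensors and adaptors, 1 rose in DH against CN, where 1.4% of all genes did. Ikbke, a kinase that activates Irf3 and Irf7, had 224.0, 217.1, 372.3 and 333.5 in DH, 67.9, 156.6, 75.6 and 130.5 in CH, and 109.0, 99.7 and 104.3 in CN. The DH arrays lay above all others, with 1.42 ± 0.30 for DH against CN (adjusted p = 0.0386) and 1.46 ± 0.28 for DH against CH (adjusted p = 0.0504, not called). Dhx58, the RNA sensor LGP2, stood at 1.31 ± 0.33 for DH against CN (adjusted p = 0.0636) and 0.64 ± 0.33 for CH against CN (adjusted p = 0.762). Zbp1, a sensor of Z-form nucleic acids, stood at 1.71 ± 0.55 for DH against CH (adjusted p = 0.210), and the RNA receptor Tlr3 at 0.67 ± 0.28 for CH against CN (adjusted p = 0.674).

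Of 18 other interferon-induced genes tested, 1 rose in DH against CH, where 0.227% of all genes did, and 2 in DH against CN, where 1.4% did. Ifitm2 and Ifitm3 are membrane proteins that block the entry of enveloped viruses. Ifitm2 had 8227.3, 9110.0, 9423.9 and 10076.3 in DH, 4978.4, 6992.4, 5766.7 and 5460.2 in CH, and 5285.3, 6465.3 and 7116.0 in CN. The DH arrays stood above both wild-type groups, which overlapped. Ifitm2 rose by 0.67 ± 0.12 in DH against CH (adjusted p = 0.0482), a call that held in 8 of 22 alternative settings. It was lost without CH 1, CH 3, CH 4, CN 1, CN 2, DH 2, DH 3 or DH 4 in turn (adjusted p up to 0.148). The call was also lost with no brightness filter, with all probe sets, without an intensity trend and with only the groups compared. So it was without array 2 of each group and without DH 3 and DH 4 together, where the adjusted p was highest, at 0.296. Ifitm3 rose by 0.99 ± 0.20 in DH against CN (adjusted p = 0.0334) and stood at 0.77 ± 0.19 for DH against CH (adjusted p = 0.102). Pml, the scaffold of nuclear bodies, rose by 0.81 ± 0.18 in DH against CN (adjusted p = 0.0429). For diet, Ifi30 stood at 0.49 and Parp9 at 0.35, and neither was called.

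Of 8 tested genes of class I presentation and the PA28 proteasome activator, 2 rose in DH against CN, where 1.4% of all genes did: Tap1 as given above and the class I heavy chain H2-D1. H2-D1 averaged 14466 ± 1982 in DH, 11492 ± 854 in CH and 9919 ± 619 in CN (SD, n = 4, 4 and 3), and rose by 0.54 ± 0.11 in DH against CN (adjusted p = 0.0382). Class I genes are near-identical copies of each other, so the value may include other members. All 8 genes had higher means in DH than in CH, where 50.2% of all genes did, with a median of 0.33. None of the 8 was called there, where only 0.227% of all genes were called higher. Another H2-D1 probe set divided the mice within groups, at 5801.8, 203.7, 5368.2 and 234.7 in DH, 129.4, 5033.5, 5500.7 and 200.5 in CH, and 3950.3, 5971.1 and 5350.2 in CN. It was low on DH 2, DH 4, CH 1 and CH 4 and high on every CN array. The mice are of a mixed background, H2-D1 lies on chromosome 17 as do Psmb9 and Tap1, and the labels give no alleles of this region. The part of such alleles in the Psmb9, Psmb8 and Tap1 results was not tested.

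The calls for DH against CN in these lists held in 20 of 22 alternative settings for Stat3, 12 of 21 for Tap1, 11 of 22 for Socs3, 11 of 22 for Ifitm3, 11 of 21 for Ikbke, 6 of 21 for Pml and 6 of 22 for H2-D1. Each of these genes other than Stat3 was no longer called without CN 1, without CN 2 or without DH 4, and the same held for Cd5l and Folr2. The Cd5l call held in 9 of 22 settings (adjusted p up to 0.175) and the Folr2 call in 4 of 21 (up to 0.189). For the other genes the highest adjusted p over the settings was 0.0715 for Stat3, 0.155 for Tap1, 0.165 for Socs3, 0.130 for Ifitm3, 0.210 for Ikbke, 0.191 for Pml and 0.137 for H2-D1.

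For the 6 tested members with further probe sets, 9 probe sets gave 27 values over the 3 comparisons, of which 22 had the sign of the value reported here. None of those with the other sign had an unadjusted p under 0.05.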

How the data were processed

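The authors deposited 1 linear intensity per probe set and array, which the submitters' processing notes name as MAS5 without a version. The RNA was extracted with a Qiagen kit and labelled with biotin from poly-dT-primed cDNA, per the labels' protocols. Detection calls were not used here, and signal over background was therefore judged only by a limit on brightness. Precision is limited by how few arrays there are.

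Signals under 1 were set to 1 (1386 values) and log2 was taken. Of the probe sets, 20380 had 1 gene symbol in the platform annotation, 691 several, 1555 none, and 64 were controls. The dimmest 40% of probe sets were removed (a limit on the mean of the log2 values, equal to a signal of about 53.0), and the brightest remaining one was used per gene, giving 7924 genes. All 11 arrays entered 1 fit in limma 3.58.1 (R 4.3.3), with lmFit and eBayes with an intensity trend, 1 mean per group, two-sided, Benjamini-Hochberg adjusted over all genes. Folds are on this log2 scale with the floor of 1. The script was tested on simulated data.

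The members and gene lists were chosen with earlier results of these data known. Values on every array are given for the genes of smallest p in each class (4 antiviral effectors, 2 in each other class), for called members, and for Irf7, Usp18 and Psmb8. Of the other lists, the 2 genes of smallest p in each comparison and all called genes are named. Psmb10, Irf1, Mx2, Ifnar1, Ifna2 and the second H2-D1 probe set were added after their values were seen, as was the recomputation of called genes of the other lists. The settings varied were the normalization (quantile), the offset (32 in place of the floor), the brightness filter (none or 60%), the probe sets kept (all), the variance model (no trend, array weights), the arrays fitted (only the groups compared, or some left out) and a block for the replicate number. Arrays of the same number had deviations from their group means correlated at 0.084 to 0.292 between DH and CH. With CN, the correlations were -0.072 to 0.111. The labels do not say that the numbers mark a shared litter or day, so they were not taken as pairs in the reported fit.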

Additional observations from a re-analysis of the deposited data

Results flagged for a closer look

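Of 58 sets of 4 arrays examined (29 members in DH and in CH), 3 had 1 array far from the others, with a gap of more than 0.829 of the whole range on the log2 scale. Chance flags about 1 set in 20. For Irf9 in DH, DH 1 was low, with a gap of 0.905 of the range. For Gbp2 in CH, CH 2 was high, with a gap of 0.857. For Iigp1 in CH, CH 4 was low, with a gap of 0.847. The groups of 3 CN arrays were not examined in this way.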

How the results depend on the processing

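The differences of single members, the counts called and most medians were recomputed under up to 22 alternatives. Of 1893 values of single members, 1878 kept their side of the threshold, 12 came to pass it, 3 no longer passed it, and 61 had the other sign without passing it in either setting. The median differences over all members, antiviral effectors, GTPases and immunoproteasome genes moved by less than the spread between arrays of a group in each of these settings. That spread (pooled SD) was 0.39, 0.43, 0.42 and 0.27. It is wider than the diet medians of all members (0.25), antiviral effectors (0.35) and GTPases (0.07). It is also wider than the DH against CH medians of antiviral effectors (0.401) and GTPases (0.413). The DH against CH median of all members, 0.401, was close to its spread of 0.392. A median could thus vanish or change sign within that spread, so this cannot show that the medians were stable. The medians of transcription factors and chemokines were not recomputed. The members called stayed at 0 in every setting for DH against CH and for CH against CN, with 4 to 17 and 0 to 5 members at an unadjusted p under 0.05.

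For DH against CN, 1 member was called in the reported fit, 4 with only the groups compared (Psmb9, Lgals3bp, Oas1a and Usp18), 0 without DH 3 and DH 4, and 0 to 5 when leaving out 1 array. Without array 2 of each group, a setting chosen after seeing the data, 4 were called (Psmb9, Irf7, Lgals3bp and Ube2l6). With the replicate number as a block, 2 were called (Psmb9, and Parp14 at 0.96, adjusted p = 0.0408), and no other member changed its call. Between DH and CH all 4 DH arrays correlated best with the CH array of their own number, a hint from the data and not the design.

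Over all genes, DH against CH gave 29 calls, 12 with no filter on dim probe sets, 0 without an intensity trend, 58 with array weights, 8 with only the groups compared, 4 without DH 3 and DH 4, 6 without array 2 of each group, and 0 to 64 when leaving out 1 array. CH against CN gave 0 calls, 1 with array weights, 2 with the replicate block, 2 without DH 3 and DH 4, 3 without array 2 of each group, and 0 to 2 when leaving out 1 array. DH against CN gave 165 calls, 81 without an intensity trend, 104 with only the groups compared, 23 without DH 3 and DH 4, 49 without array 2 of each group, and 36 to 199 when leaving out 1 array. The cause of these changes was not tested. With 3 or 4 arrays in a group and no detection calls, small differences and differences of genes near background could not be resolved.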
